A study of Mus musculus with 11 samples.

Results

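Gja4, Gja5, Dll4, Notch4, Hey1, Efnb2, Sema3g, Edn1, Sox17 and Bmx are 10 genes of arterial endothelium, the cell layer that lines arteries and arterioles. They were followed by symbol in mouse lung tissue, as 10 of the 19938 named genes of the deposited table, each through the table row listed under that symbol alone. Lungs came from 129S1 mice in 4 groups: 2 untreated control arrays, and 3 arrays each for aspirin (4 mg/kg), triptolide (1 mg/kg), and both drugs at those doses, called the combination here. Treated animals were gavaged on 5 days a week over 2 months with drug dissolved or suspended in PBS. The protocol names a PBS group where the titles say untreated, and the labels do not settle whether controls were gavaged. Age and sex are not given, nor whether the arrays of a group came from separate animals, so the spread between arrays may be partly technical. Whole lung RNA was measured, which mixes endothelium with all other lung cells.

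Arterial endothelium is set apart from veins and capillaries by Notch signalling. The ligand Dll4 on one cell binds Notch receptors such as Notch4 on its neighbour, and the released receptor fragment joins Rbpj to switch on targets such as Hey1 and Efnb2. Sox17 is a transcription factor that acts with Notch in arterial identity, the connexins encoded by Gja4 and Gja5 form gap junction channels between arterial endothelial cells, and Edn1 encodes the vasoconstrictor endothelin 1.

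The 10 symbols were listed with earlier results of these data in view, in which Gja4 and Sema3g were among the genes with the smallest p for triptolide against control, and Gja4 again for the combination against control. Differences from control are therefore given as a description, with no test read from them. Values are log2 levels, so a negative difference is a lower level.

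Over all genes, any 2 arrays correlated at 0.947 to 0.996. The array that stood apart was combination 1, at 60.2 on the first principal component, where the other arrays lay between -15.0 and 6.8. Its erythroid list level was 2.92 and its cell cycle list level 2.74, against at most 0.96 and -0.07 on any other array. Kdm5d, Uty and Eif2s3y, genes of the Y chromosome, had a mean centred level of -1.68 to -1.55 in control, 1.39 to 1.60 under aspirin, and -1.82 to -0.76 in combination arrays. Triptolide 1 read -0.94, and triptolide 2 and 3 read 1.87 and 1.58. Xist, the RNA of the inactive X, was high where these were low, except that triptolide 2 read -0.32, between the other high arrays at -3.45 to -3.07 and the low arrays at 1.92 to 2.74. Control and combination arrays were thus alike in these genes, and aspirin arrays differed from both. Among the groups, only triptolide held both low and high arrays. A fit with the Y-linked level as covariate therefore takes its slope largely from triptolide 1 against triptolide 2 and 3. Values from that fit are given as a description.

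All 10 genes had a lower mean in the combination than in control, as did 47.2% of all genes, and for all 10 the arrays of these groups did not overlap, where 20.5% of all genes lay wholly below control. Their median difference was -0.61, with a range from -1.05 for Gja5 to -0.32 for Sox17, beside a median of 0.01 over all genes. With triptolide alone, 9 of the 10 had a lower mean than control, beside 55.0% of all genes, and 8 did not overlap with it, where 13.3% of all genes lay wholly below, and the median was -0.36 beside -0.01 over all genes. With aspirin alone, 6 had a lower mean, beside 51.7% of all genes, and 6 did not overlap with control in one direction or the other, against 26.0% of all genes, with a median of -0.10. None of the 10 passed at an adjusted p under 0.05 in any of these comparisons, where limma called 0% of all genes. At an unadjusted p under 0.05 there were 10 for the combination, 4 for triptolide and 1 for aspirin, all lower, with 10.6%, 1.66% and 1.71% of all genes lower at that level. Since these contrasts were in view when the genes were listed, nothing is read from these counts. All 9 treated arrays lay below both controls in Gja4, Gja5, Efnb2 and Sema3g, as in 4.26% of all genes. Fewer arterial endothelial cells and less RNA per cell cannot be told apart in whole lung RNA.

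**Figure D1:**
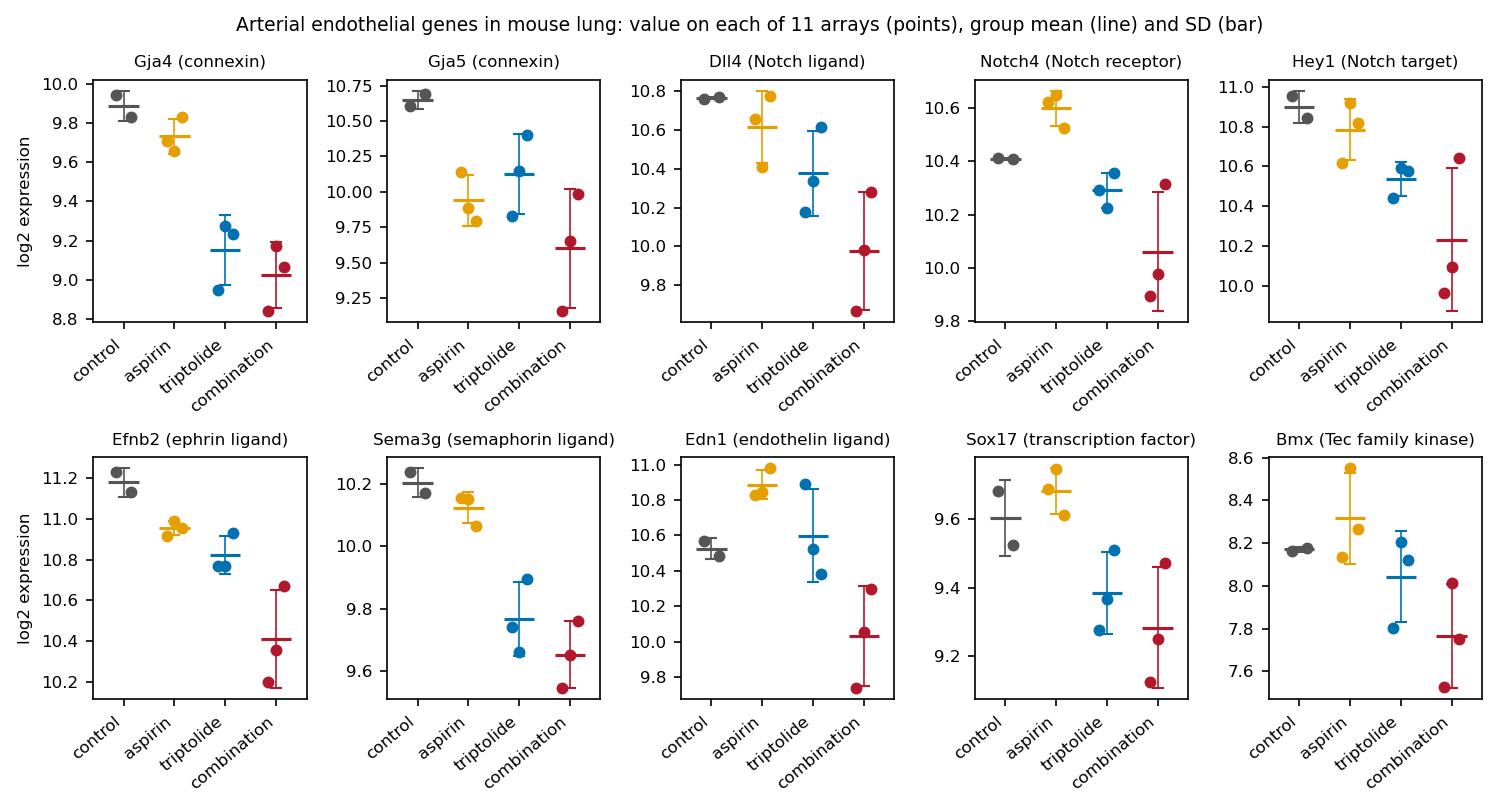
Log2 expression of the 10 genes (vertical axes, which differ between panels and do not start at 0) on each of 11 arrays, by treatment group. Points are arrays, lines are group means and bars are SD over 2 control or 3 treated arrays; all 10 genes have their lowest mean in the combination, and Gja4 and Sema3g are low in both triptolide-exposed groups.

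**Figure D2:**
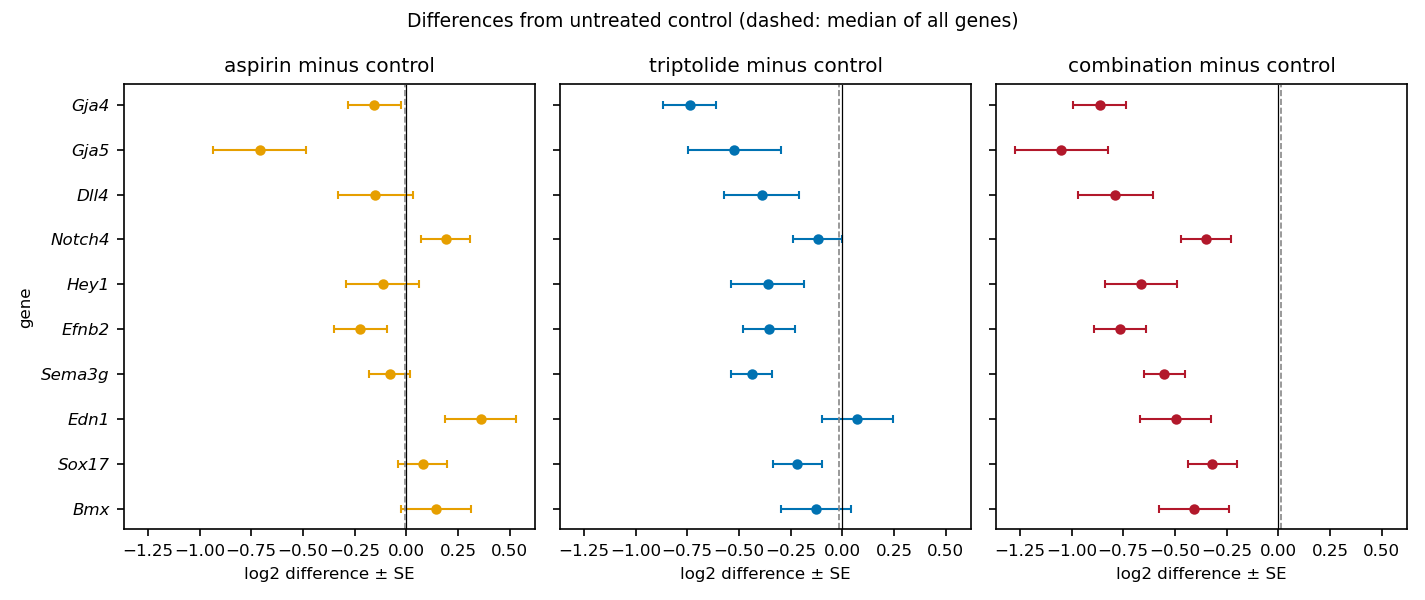
Log2 differences of each group mean from untreated control (horizontal axis), with the SE of the limma fit, for the 10 genes (vertical axis). The dashed line is the median over all genes; combination differences run from -1.05 to -0.32, while aspirin differences run from -0.71 for Gja5 to 0.36 for Edn1.

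RefSeq promoter windows of GRCm38.p6, from 250 bases before to 50 after the annotated start, were matched for 8 of the 10 genes. Hey1 and Sox17 were not matched. The 4 printed here stand for the patterns given gene by gene after them: Gja4 and Sema3g for the split by triptolide, Efnb2 and Edn1 for the combination below all other arrays. They are given 5′ to 3′ on the gene's strand, with matches on either strand to the Rbpj core TGGGAA, the Sox core ACAAT and the TATA box TATAAA in capitals.
Gja4, chr4:127313990-127314289, minus strand: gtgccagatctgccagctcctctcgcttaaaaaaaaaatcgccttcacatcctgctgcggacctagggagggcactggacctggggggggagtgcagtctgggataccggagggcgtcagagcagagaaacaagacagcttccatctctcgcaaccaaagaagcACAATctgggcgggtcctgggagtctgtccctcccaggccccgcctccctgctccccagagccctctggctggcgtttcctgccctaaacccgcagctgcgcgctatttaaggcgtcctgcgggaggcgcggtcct
Sema3g, chr14:31217623-31217922, plus strand: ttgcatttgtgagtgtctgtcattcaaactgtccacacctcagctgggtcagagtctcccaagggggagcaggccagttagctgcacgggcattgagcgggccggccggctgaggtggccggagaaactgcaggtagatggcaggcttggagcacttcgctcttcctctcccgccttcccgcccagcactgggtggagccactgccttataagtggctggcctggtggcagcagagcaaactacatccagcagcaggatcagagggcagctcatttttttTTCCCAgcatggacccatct
Efnb2, chr8:8661193-8661492, minus strand: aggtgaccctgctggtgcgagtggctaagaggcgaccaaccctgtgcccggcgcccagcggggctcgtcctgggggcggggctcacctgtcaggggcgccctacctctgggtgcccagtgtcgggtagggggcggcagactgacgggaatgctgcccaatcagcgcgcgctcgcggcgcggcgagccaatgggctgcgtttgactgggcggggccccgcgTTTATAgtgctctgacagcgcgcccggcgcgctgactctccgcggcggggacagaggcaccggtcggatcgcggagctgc
Edn1, chr13:42301226-42301525, plus strand: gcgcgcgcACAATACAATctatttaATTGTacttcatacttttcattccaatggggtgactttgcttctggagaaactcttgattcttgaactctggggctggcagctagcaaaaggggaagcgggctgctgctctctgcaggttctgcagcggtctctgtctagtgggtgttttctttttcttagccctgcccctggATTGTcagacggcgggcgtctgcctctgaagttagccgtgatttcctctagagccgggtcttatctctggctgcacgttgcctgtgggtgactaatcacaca

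In these letters Gja4 holds 1 Sox core, Sema3g 1 Rbpj core on the reverse strand, Efnb2 1 TATA box on the reverse strand, and Edn1 4 Sox cores, 2 on each strand; no matches overlap. Across the 8 windows, the Sox core was found in 4 (Gja4, Edn1, Notch4 and Bmx), the Rbpj core in 2 (Sema3g and Bmx) and the TATA box in 1. Of all 32851 windows of the same length, 31.0% hold the Sox core, 25.6% the Rbpj core and 13.6% the TATA box. The matched genes with all triptolide-exposed arrays lowest share no one of these motifs: Gja4 and Notch4 hold the Sox core and Sema3g the Rbpj core.

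Among the connexins, Gja4 separated the arrays by triptolide. Gja4 read 9.94 and 9.83 in control, 9.71, 9.66 and 9.83 with aspirin, 8.95, 9.27 and 9.24 with triptolide, and 8.84, 9.17 and 9.06 with the combination. Every array exposed to triptolide, alone or with aspirin, lay at or below 9.27, and every unexposed array at or above 9.66. The difference from control was -0.74 ± 0.13 (SE) for triptolide and -0.86 ± 0.13 for the combination, the latter 45.0% lower in linear terms, and -0.15 ± 0.13 for aspirin. Triptolide and combination arrays overlapped in Gja4, with a difference of -0.13 between them and a 95% interval from -0.38 to 0.13.

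Gja5, whose connexin pairs with that of Gja4 in arterial endothelium and is also made by atrial heart muscle, had another order. It read 10.60 and 10.69 in control, 10.14, 9.89 and 9.79 with aspirin, 9.83, 10.15 and 10.40 with triptolide, and 9.16, 9.66 and 9.99 with the combination. All 9 treated arrays lay below both controls, and aspirin, triptolide and combination arrays overlapped one another. The difference from control was -0.71 ± 0.22 for aspirin, -0.52 ± 0.22 for triptolide and -1.05 ± 0.22 for the combination, the last being 51.7% lower in linear terms. Without a covariate, Gja5 alone among the members had an aspirin difference below -0.25. With the Y-linked covariate it was -1.20 in Gja5, -0.49 in Dll4, -0.44 in Hey1, -0.43 in Gja4 and -0.38 in Efnb2. Notch4 and Edn1 were above control there, at 0.11 and 0.74. Cardiac muscle markers, 12 genes such as Myh6 and Nppa, had a mean centred level of -0.45 to -0.19 in control, -0.03 to 0.52 with aspirin, -0.25 to 0.94 with triptolide and -0.21 to -0.11 with the combination, and their part in Gja5 was not tested.

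In the Notch pathway, Dll4, the ligand, read 10.76 and 10.77 in control, 10.65, 10.41 and 10.78 with aspirin, 10.18, 10.34 and 10.61 with triptolide, and 9.67, 9.98 and 10.28 with the combination. Aspirin arrays overlapped control, and the lowest values were those of combination 1 and 2. The difference from control was -0.79 ± 0.18 for the combination and -0.39 ± 0.18 for triptolide.

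Notch4, an endothelial Notch receptor, read 10.41 on both control arrays, 10.62, 10.65 and 10.53 with aspirin, 10.29, 10.23 and 10.36 with triptolide, and 9.89, 9.98 and 10.31 with the combination. Aspirin stood wholly above control and both triptolide groups wholly below it. The differences from control were 0.19 ± 0.12, -0.12 ± 0.12 and -0.35 ± 0.12 in that order.

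Hey1, a repressor induced by Notch, read 10.95 and 10.84 in control, 10.62, 10.92 and 10.82 with aspirin, 10.44, 10.59 and 10.58 with triptolide, and 9.96, 10.09 and 10.64 with the combination. Combination 3 lay above all 3 triptolide arrays, while combination 1 and 2 lay lowest of all. The combination differed from control by -0.67 ± 0.18 and triptolide by -0.36 ± 0.18.

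Efnb2, the membrane ligand of arterial endothelium that binds Ephb4 on veins, had group means in the order control, aspirin, triptolide, combination. Its values were 11.23 and 11.13 in control, 10.92, 10.99 and 10.96 with aspirin, 10.77, 10.77 and 10.93 with triptolide, and 10.20, 10.36 and 10.67 with the combination. All combination arrays lay below all other arrays, a pattern that 4.04% of all genes and 2 of the 10 share, while aspirin and triptolide overlapped. The difference from control was -0.77 ± 0.13 for the combination, -0.36 ± 0.13 for triptolide and -0.22 ± 0.13 for aspirin.

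Sema3g, a secreted semaphorin of arterial endothelium, followed the split seen in Gja4. It read 10.24 and 10.17 in control, 10.15, 10.15 and 10.06 with aspirin, 9.74, 9.66 and 9.89 with triptolide, and 9.54, 9.65 and 9.76 with the combination. Exposed arrays reached at most 9.89 and unexposed arrays at least 10.06. Triptolide differed from control by -0.44 ± 0.10, the combination by -0.55 ± 0.10 and aspirin by -0.08 ± 0.10.

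Sox17, the transcription factor, read 9.68 and 9.52 in control, 9.69, 9.75 and 9.61 with aspirin, 9.28, 9.37 and 9.51 with triptolide, and 9.12, 9.25 and 9.47 with the combination. Here too every exposed array lay below every unexposed one, but only just, with triptolide 3 at 9.51 and control 2 at 9.52. In all, Gja4, Sema3g, Notch4 and Sox17 had all 6 exposed arrays below all 5 unexposed arrays, where 0.717% of all genes did. Gja4 and Sema3g were in view for triptolide at the listing, so this share is a description and nothing is read from it. The Sox17 differences from control were -0.22 ± 0.12 for triptolide, -0.32 ± 0.12 for the combination and 0.08 ± 0.12 for aspirin. The aspirin difference of Sox17 turned to -0.14 once the Y-linked level was a covariate.

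Edn1 had the least like pattern. It read 10.57 and 10.49 in control, 10.83, 10.85 and 10.98 with aspirin, 10.89, 10.52 and 10.38 with triptolide, and 9.74, 10.05 and 10.30 with the combination. Aspirin arrays lay wholly above control, triptolide arrays lay on both sides of it, and combination arrays lay below all others. The difference from control was 0.36 ± 0.17 for aspirin, 0.07 ± 0.17 for triptolide and -0.50 ± 0.17 for the combination.

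Bmx, a Tec family kinase of arterial endothelium encoded on the X chromosome, read 8.16 and 8.18 in control, 8.14, 8.55 and 8.26 with aspirin, 7.80, 8.21 and 8.12 with triptolide, and 7.53, 8.01 and 7.75 with the combination. Only the combination lay wholly below control, by -0.41 ± 0.17. Aspirin and triptolide overlapped control, at 0.15 ± 0.17 and -0.13 ± 0.17. The aspirin difference of Bmx turned to -0.16 with the Y-linked covariate.

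Comparisons between treated groups reuse the treated arrays of the contrasts that were in view when the genes were listed, so their p-values and counts are not independent of the listing and are given as a description. Adding triptolide to aspirin is read from the combination against aspirin alone. All 10 genes had a lower mean in the combination, beside 50.0% of all genes, with a median difference of -0.55 beside 0.00 over all genes, and 8 of 10 did not overlap, against 9.86% of all genes. The largest differences were those of Edn1 at -0.86 ± 0.15 and Gja4 at -0.71 ± 0.11, with limma adjusted p of 0.0974 and 0.0967. Dll4 differed by -0.64 ± 0.16, Notch4 by -0.54 ± 0.11 and Sema3g by -0.47 ± 0.09, and the smallest was Gja5 at -0.34 ± 0.20. None passed, where limma called 0% of all genes. At an unadjusted p under 0.05, 9 of the 10 were lower, as were 8.22% of all genes. Aspirin and combination arrays also differ in the Y-linked level, and the median was -0.37 once that level was a covariate, when Gja5 turned to 0.09. Without combination 3, 8 of the 10 passed, and 704 genes in all.

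Adding aspirin to triptolide is read from the combination against triptolide alone. All 10 means were again lower, beside 46.7% of all genes, with a median of -0.29 beside 0.02 over all genes, but only Efnb2 and Edn1 did not overlap, against 9.53% of all genes. Edn1 differed by -0.57 ± 0.15, Gja5 by -0.53 ± 0.20 and Efnb2 by -0.41 ± 0.11, each with a limma adjusted p of 0.353. Sox17 differed by -0.10 ± 0.11, Sema3g by -0.11 ± 0.09 and Gja4 by -0.13 ± 0.11. None passed, with 0% of all genes called, and 4 of 10 were lower at an unadjusted p under 0.05 beside 10.1% of all genes. The median was -0.13 once the Y-linked level was a covariate, when Gja4 and Sox17 turned to 0.06 and 0.05, and without combination 3 it was -0.43.

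Aspirin alone against triptolide alone sets the drugs side by side. The mean was higher with aspirin in 9 of 10, beside 53.1% of all genes, the exception being Gja5 at -0.19 ± 0.20, and 5 of 10 lay wholly above, against 4.00% of all genes. Those were Gja4 at 0.58 ± 0.11, Sema3g at 0.36 ± 0.09, Notch4 at 0.31 ± 0.11, Sox17 at 0.30 ± 0.11 and Hey1 at 0.25 ± 0.16. The limma adjusted p was 0.960 for all 10, and 0% of all genes passed. At an unadjusted p under 0.05, 4 of the 10 were higher with aspirin, as were 1.52% of all genes.

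The interaction asks whether the combination differs from the sum of the drugs given alone. It was -0.93 ± 0.23 for Edn1, -0.42 ± 0.16 for Notch4 and -0.42 ± 0.23 for Bmx, and 0.03 ± 0.17 for Gja4. The 95% interval ran from -1.44 to -0.42 for Edn1 and from -0.35 to 0.41 for Gja4. None passed, the smallest limma adjusted p being 0.895, with 0% of all genes called and 2 of 10 lower at an unadjusted p under 0.05 beside 2.23% of all genes. It was below 0 in 8 of 10, beside 48.0% of all genes, at a median of -0.19. Once the Y-linked level was a covariate the median was 0.14, Bmx turned to 0.09, Gja4 moved to 0.49 and Gja5 from 0.18 to 1.00, while Edn1 and Notch4 stayed below 0 at -1.56 and -0.28. Dll4, Hey1, Efnb2, Sema3g and Sox17 also turned above 0 there. The slope of this covariate rests largely on triptolide 1 against triptolide 2 and 3, so these values are a description.

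For the combination against control, which was in view at the listing, the count of 0 depended on the arrays fitted, and these counts too are a description. Without combination 3, 7 of the 10 passed, among 896 genes in all, at a median of -0.75. Without triptolide 1, Gja4 passed, among 11 genes in all. Without combination 1, the array that stood apart, 0 of the 10 and 1 gene in all passed, and the median was -0.51. All 10 lay wholly below control there, as did 28.4% of all genes.

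Arrays of like Y-linked level gave differences of triptolide arrays with a smaller gap in that level. The gap was not removed, since triptolide 1 read -0.94 where the controls read -1.55 and -1.68. The reference was control among low arrays and aspirin among high arrays. Among arrays low in these genes, triptolide 1 minus the control mean was -0.94 in Gja4, -0.46 in Sema3g and -0.33 in Sox17. Among arrays high in them, the mean of triptolide 2 and 3 minus that of aspirin was -0.48 in Gja4, -0.34 in Sema3g and -0.24 in Sox17. Gja5 had opposite signs in these subsets, at -0.82 and 0.33, and so did Edn1, at 0.37 and -0.43. Aspirin itself differed from control by -0.71 in Gja5 and 0.36 in Edn1. A changed triptolide difference therefore cannot be told apart from the change of reference. The second subset includes triptolide 2, whose Xist lay between. These subsets hold 1 to 3 arrays a side, so they carry no test.

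Other genes of the same pathways were read from lists chosen by role, and none of their members passed in any comparison. The lists share genes, among them Notch1, Nrp1, Ephb4, Ednrb, Kdr, Sox7 and Sox18, so their medians and counts are not independent of one another. Of 28 other Notch pathway genes, 24 had a lower mean in the combination than in control, with a median of -0.20. Notch1, the main arterial receptor, differed by -0.45 ± 0.12, Mfng, which modifies Notch receptors with sugar, by -0.41 ± 0.11, and Aph1a, a subunit of the protease that releases the receptor fragment, by -0.32 ± 0.09. Against triptolide alone the smallest p in this list were those of the target Heyl at -0.46 ± 0.13 and the feedback inhibitor Nrarp at -0.44 ± 0.15. Among 21 other arterial genes, 18 were lower than control with a median of -0.31, the smallest p being those of Stmn2 at -1.08 ± 0.17, Tmem100 at -0.81 ± 0.16 and the elastic fibre gene Fbln5 at -0.73 ± 0.15.

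Relatives of the single genes were lower in part. Sox7 and Sox18, which share the SoxF subfamily with Sox17, differed from control by -0.90 ± 0.15 and -0.80 ± 0.14 in the combination. Of 5 other endothelin genes 4 were lower, with Ece1, the enzyme that cuts endothelin to its active form, at -0.80 ± 0.13 and the receptor Ednrb at -1.04 ± 0.18. Among 7 genes of ephrin B signalling 5 were lower, including Ephb4, the venous receptor of Efnb2, at -0.69 ± 0.13. All 13 class 3 semaphorins and receptors were lower with a median of -0.52, among them Sema3a at -0.83 ± 0.16 and the co-receptor Nrp1 at -0.76 ± 0.19. The 13 other connexins and pannexin had 5 lower and a median of 0.05, although Gjc1 and Gja1, the connexins 45 and 43 of vessels and heart, stood at -0.41 ± 0.11 and -0.49 ± 0.17. The 3 other Tec kinases, found mostly in blood cells, were all higher, with Btk at 0.40 ± 0.25. Of 16 upstream regulators, which include Vegfa and its receptors, 13 were lower with a median of -0.33.

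**Figure D3:**
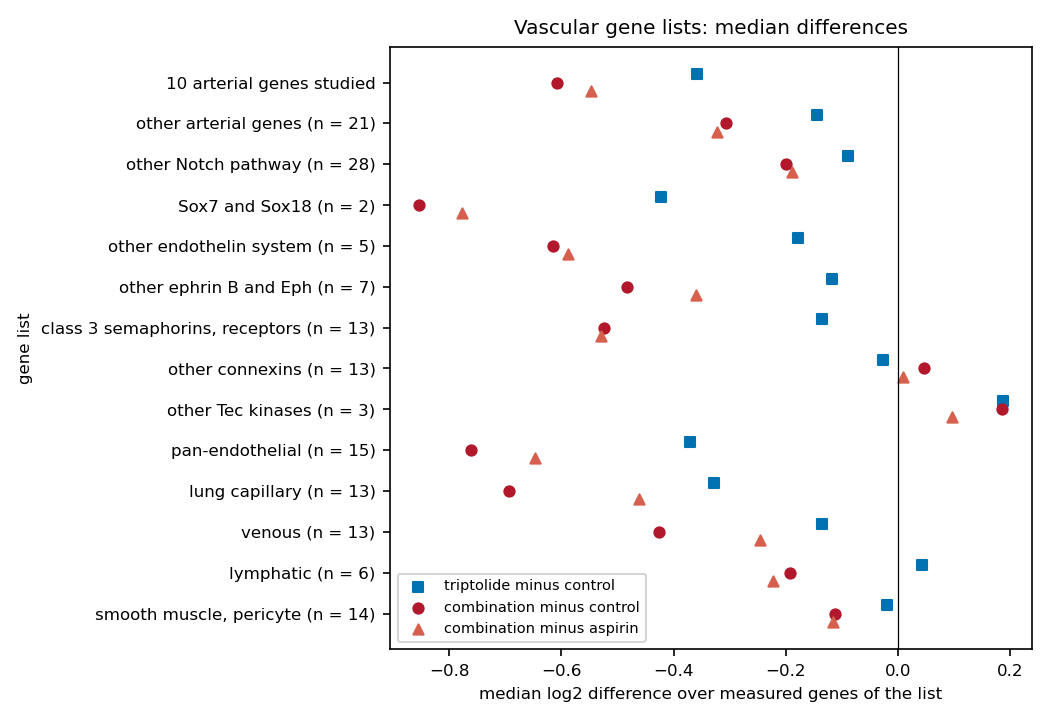
Median log2 difference (horizontal axis) over the measured genes of each list (vertical axis, n in brackets) for triptolide minus control, combination minus control and combination minus aspirin. The 10 arterial genes have medians of -0.36, -0.61 and -0.55, the 15 pan-endothelial genes a combination median of -0.76, and other connexins lie near 0.

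For the combination against control, lists of general endothelial and of lung capillary genes had medians below that of the 10 arterial genes. So did the list of alveolar type 1 cell genes, which are not endothelial, at -0.65. Venous and lymphatic lists had medians closer to 0 there. Against aspirin, the combination had a lung capillary median of -0.46, beside -0.55 for the arterial genes. For triptolide against control these were -0.33 and -0.36. The 15 pan-endothelial genes, such as Cdh5 at -0.89 ± 0.14 and Plvap at -0.76 ± 0.12, were all lower in the combination than in control with a median of -0.76, and all 13 lung capillary genes were lower with a median of -0.69, the smallest p being those of Plvap, Apln at -0.98 ± 0.16 and Car4, a carbonic anhydrase of aerocytes, at -0.93 ± 0.16. Of 13 venous genes 12 were lower with a median of -0.43, of 6 lymphatic genes 4 with a median of -0.19, and of 14 smooth muscle and pericyte genes 10 with a median of -0.11. Averaged over genes and centred over arrays, the level of the 10 arterial genes was 0.30 and 0.25 in control, 0.19, 0.23 and 0.21 with aspirin, -0.14, -0.04 and 0.05 with triptolide, and -0.59, -0.33 and -0.13 with the combination. The pan-endothelial level on the same arrays was 0.40 and 0.29, then 0.26, 0.18 and 0.17, then -0.14, -0.05 and 0.19, then -0.69, -0.39 and -0.21. The arterial level minus the pan-endothelial level was -0.09 and -0.04 in control and 0.06 to 0.10 with the combination. It was -0.06 to 0.04 with aspirin and -0.14 to 0.01 with triptolide. In the combination the arterial level thus did not stand lower than the pan-endothelial level.

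**Figure D4:**
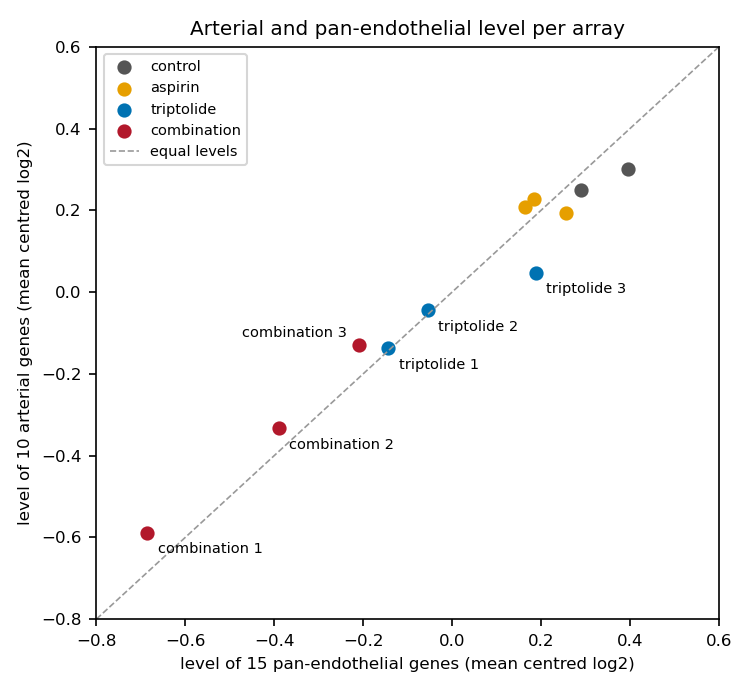
Mean centred log2 level of the 10 arterial genes (vertical axis) against that of 15 pan-endothelial genes (horizontal axis), 1 point for each of 11 arrays, coloured by group, with a dashed line of equal levels. Combination 1 is lowest on both axes at -0.69 and -0.59, and the control arrays are highest.

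Markers of alveolar cells and of B and plasma cells also differed between control and combination arrays. For neutrophil and platelet genes the control levels lay inside the combination range. The part of these cells in the arterial differences was not tested. Alveolar type 1 genes had a level of 0.18 to 0.24 in control and -0.86 to -0.09 in the combination, and type 2 genes 0.10 to 0.21 and -0.73 to -0.06, with all 11 measured genes lower in each list. B and plasma cell genes ran from -0.44 to -0.39 in control and 0.38 to 0.96 in the combination, neutrophil genes from -0.50 to -0.49 and -0.68 to 0.29, and platelet genes from -0.48 to -0.45 and -0.62 to 0.65. The B and plasma cell list had 9 of 9 genes higher, the neutrophil list 7 of 10 and the platelet list 8 of 9. Aspirin 2 stood out in neutrophil genes at 2.86 and platelet genes at 1.51.

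Within the set, the 45 pairwise correlations over 11 arrays ran from 0.37 to 0.94 with a median of 0.81, given as a description of arrays that share their treatment groups. Hey1 and Efnb2 were most alike at 0.94, and Gja5 and Edn1 least at 0.37, or -0.12 without combination 1. Taken as deviations from group means, the median was 0.60, and Edn1 and Bmx were least alike at -0.11. Genes outside the set whose values followed its mean level most closely over 11 arrays were Prickle2 (r = 0.992), Jup (0.991), which encodes the junction protein plakoglobin, Ptprb (0.989), the endothelial phosphatase that acts on Tek, Ripor1 (0.987) and Bmpr2 (0.986), a receptor of bone morphogenetic proteins. Spearman's rho for these was 0.88, 0.98, 0.91, 1 and 0.95. Without combination 1 the 5 closest were Tjp1, a tight junction protein, at 0.987, Erg, an endothelial transcription factor, at 0.986, Ripor1 at 0.985, Prickle2 at 0.984 and Jup at 0.983. Gja4 alone was followed most closely by Spns2, which exports sphingosine 1-phosphate from endothelium, at 0.930, Prickle1 at 0.917, Grtp1 at 0.914, Tnfsf10 at 0.914 and Cdk16 at 0.913, none of which was among the closest for the set. For Gja4 without combination 1, all 5 were replaced. The closest were then Pwwp2b at 0.933, Mylip at 0.931, Zfp503 at 0.923, Kitl at 0.914 and Lmo2 at 0.911.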

How the data were processed

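The deposited values are log2 expression, 1 per row and array, over 35556 rows and 11 Affymetrix arrays. The submitters' processing notes name RMA and Partek without version, role or setting. Medians of the arrays lay between 8.135 and 8.254. There are no detection calls, and precision is limited by how many arrays there are. GEO's platform annotation listed 1 gene symbol for 21789 rows and several for 1621; the latter were not tested. Of a gene's rows, the one with the highest mean stood for it, which left 19938 genes, with 1 row for each of the 10.

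limma 3.58.1 in R 4.3.3 (lmFit, eBayes) was fitted over all genes, arrays and 4 groups with no covariate, for 6 pairwise contrasts and the interaction. Tests were two-sided with Benjamini-Hochberg adjustment over all genes, passed at 0.05, and errors are SE of the fit. The fit was tested on simulated data. Members and gene lists were chosen with earlier results of these data known. From each list at most the 3 genes with the smallest p in the combination against control, and the 3 against triptolide, were named, and the 5 genes with the highest Pearson correlation to the set or to Gja4. List levels are means of centred log2 values. Alternatives covered scaling, weights, filter, row choice, moderation, covariate, replicate block, arrays fitted and each array left out.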

Additional observations from a re-analysis of the deposited data

Results flagged for a closer look

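Edn1 was picked out because its aspirin differences went opposite ways without and with triptolide. The aspirin arrays, at 10.83 to 10.98, lay wholly above the control arrays, at 10.49 and 10.57, while the combination arrays, at 9.74 to 10.30, lay wholly below the triptolide arrays, at 10.38 to 10.89. The interaction was -0.93, with an SE of 0.23, and it did not pass, at a limma adjusted p of 0.895. It lay between -1.56 and -0.78 in all 20 other settings, with adjusted p from 0.147 to 1. Moderation, the filter and the row choice cannot change the size of the interaction. Of all genes, 154, or 0.772%, had opposite and non-overlapping aspirin differences of this kind. Aspirin arrays also lay above control in the Y-linked level, and combination arrays lay below triptolide 2 and 3. The Y-linked genes had a median interaction of -5.20. The part of this imbalance in the Edn1 differences was not tested.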

How the results depend on the processing

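Of 1460 values of single genes under other settings, 21 had the opposite sign, 14 of them for the interaction and 0 for the combination against control. Many of the 1460 could not differ from the main value. Moderation, the filter and the row choice leave a member's difference unchanged. So does leaving out an array of a group not compared. The share with the opposite sign is therefore no measure of how stable the signs are. Members passing for the combination against control numbered 5 with arrays centred on their medians, 6 with array weights and 3 with low genes left out. There were 2 with trended and robust moderation and 2 with a Y-linked covariate, against 0 in the main fit. Genes passing in all were 335, 1717, 66, 56 and 96 in that order, against 0. None of the 10 passed with quantile normalization, the mean of all rows, no moderation or only the arrays of the groups compared. Genes passing in all were then 2, 0, 0 and 0. With array weights, 1 member passed for triptolide against control, 1 for aspirin against control, 7 for the combination against aspirin and 1 for aspirin against triptolide, and 10, 526, 873 and 137 genes in all. These weights were fitted gene by gene, at 5.98 for aspirin 3 and 0.15 for combination 1, because the default fit stopped before it converged. Leaving out 1 array gave 0 to 7 members for the combination against control, at medians from -0.75 to -0.51, and 0 to 8 for the combination against aspirin, at medians from -0.67 to -0.44; the counts of 7 and 8, both without combination 3, stood among 896 and 704 genes in all. It gave medians from -0.43 to -0.17 for the combination against triptolide and from -0.36 to -0.089 for the interaction. That covariate takes its slope largely from the triptolide arrays. With the Y-linked covariate the medians were -0.27 for aspirin against control, -0.37 for the combination against aspirin, -0.13 against triptolide and 0.14 for the interaction. The cause of these changes was not tested. The deposited values carry no signal over background, so how far dim values limit Bmx cannot be given.

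Replicate numbers in the titles were not taken as pairs. Deviations correlated above 0.1 in 6 of 15 same-numbered pairs of arrays, over a range from -0.14 to 0.33 with a median of 0.08. Differently numbered pairs did so in 4 of 30, over a range from -0.38 to 0.34 with a median of -0.07. These values do not settle whether the numbers mark pairs. With the replicate block, 4 members passed for the combination against control, and 152 genes in all, against 0; no other call among the 10 changed with the block.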

Other observations

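The annotation lists 6 further rows under both Notch4 and Sympk, and they were assigned to neither gene. They differed from the row of Notch4 alone in direction. The combination mean exceeded the control mean by 1.32 to 1.47 on these rows, which hold 5 distinct sets of values, whereas the row of Notch4 alone differed by -0.35. On the highest of them the arrays read 9.32 to 9.53 in control, 9.03 to 10.23 with aspirin, 9.73 to 10.91 with triptolide and 10.58 to 11.07 with the combination.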
